A study of Sus scrofa with 2 samples.

Results

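Fibroblasts of pig skin that carried RNA of MYOC, FGF10 and TMEFF2 are described here, in 1 fresh and 1 cryopreserved single-cell library. The members numbered 520 among 2255 fibroblasts and 6998 filtered cells, out of 9239 barcodes in all. The skin came from the back of healthy male farm pigs, was taken as full-thickness punches with the subcutaneous fat scraped off, and was dissociated with enzymes. The fresh group was 1 library of cells loaded without freezing, and the cryopreserved group was 1 library of cells frozen in 90% fetal bovine serum with 10% dimethyl sulfoxide and thawed. In both, dead cells and doublets were gated out by flow sorting before droplet capture with a kit that reads the 3′ end of each transcript. The protocol label describes freezing for both samples, whereas the treatment label marks 1 as untreated. Whether both libraries came from 1 animal is not stated in the sources used here. With 1 library per condition the state of the cells, the animal and the library cannot be told apart, so no test of a difference was possible and no p-value is given.

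Members were chosen on measured values. A filtered cell had at most 4500 genes, at most 30000 unique molecular identifiers (UMIs, each counting 1 captured molecule) and at most 10% of UMIs on 13 mitochondrial genes. A fibroblast had at least 2% of its UMIs on COL1A1, COL1A2 and COL3A1 together and under 0.3% on KRT5, the basal keratin of keratinocytes. A member was a fibroblast with at least 3 UMIs of MYOC, FGF10 and TMEFF2 together, and with more of these than of NT5E, SPON1 and CPZ together and than of CTHRC1. The fresh library held 184 members and the cryopreserved library 336. No barcode of a member occurred in both libraries, whereas 6 of all barcodes did.

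Fibroblasts build and remodel the collagen and elastic matrix of the dermis, and they differ by depth in the skin and by their nearness to vessels, nerves and hair follicles. MYOC encodes myocilin, a secreted glycoprotein best known from the outflow tissue of the eye. FGF10 is a ligand that mesenchymal cells release to act on the receptor FGFR2 of neighbouring epithelium. TMEFF2 encodes a membrane protein with follistatin-like and EGF-like domains. In the Sscrofa11.1 assembly, RefSeq places MYOC (ENSSSCG00000035066) on chromosome 9 from 114087370 to 114098765, FGF10 (ENSSSCG00000016878) on chromosome 16 from 28695465 to 28779953, and TMEFF2 (ENSSSCG00000016064) on chromosome 15 from 96594901 to 96856848.

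Members made up 6.63% of the filtered fresh cells (95% exact binomial interval 5.73 to 7.62, 184 of 2775) and 7.96% of the filtered cryopreserved cells (7.16 to 8.81, 336 of 4223). Among fibroblasts the shares were 20.2% (17.6 to 22.9, of 913) and 25% (22.7 to 27.4, of 1342). These intervals, like all others given here, cover counting error only. The libraries differed in depth, with medians per member of 14737 UMIs (fresh) and 10961 UMIs (cryopreserved), and deeper cells reach 3 UMIs more easily. After every fibroblast was thinned to 4000 UMIs, the shares among fibroblasts were 16.4% and 20.6%. The flow sort also shapes such shares, and whether it passed the same cells in both libraries was not tested.

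Genes that mark fibroblasts were present in the members. Detection varied, and LOXL1, another such gene, had a UMI in 51.6% of fresh and 49.4% of cryopreserved members. Levels are given as unscaled CPM, the UMIs of a gene per 1000000 UMIs of the cells in question. PDGFRA, a receptor typical of fibroblasts, stood at 734 unscaled CPM in the fresh members and 670 in the cryopreserved members. DCN and LUM, small proteoglycans that coat collagen fibrils, had UMIs in 100% of the members of each library. Keratinocytes had a DCN UMI in 72.3% of fresh and 56.1% of cryopreserved cells, so detection of DCN alone does not set members apart. By level, DCN had 4227 and 3830 unscaled CPM in members and 158 and 155 in keratinocytes. A LUM UMI was found in 8.72% and 5.99% of keratinocytes. In keratinocytes, PDGFRA had 1.99 unscaled CPM among fresh cells and 3.48 among cryopreserved cells. The name by MYOC, FGF10 and TMEFF2 is a name for the set and not for every cell. All 3 genes were detected together in 66 of the 184 fresh members (35.9%) and in 129 of the 336 cryopreserved members (38.4%). Exactly 2 of them were detected in 88 (47.8%) and 156 (46.4%) members, and 1 alone in 30 (16.3%) and 51 (15.2%). MYOC together with TMEFF2 was the most common pair, in 50 fresh and 80 cryopreserved members.

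The marker genes themselves, which the rule used, had these levels. MYOC stood at 1250 unscaled CPM in the fresh members (95% exact Poisson interval 1207 to 1293) and at 1238 in the cryopreserved members (1203 to 1274). FGF10 had 234 (215 to 253) and 262 (246 to 279) unscaled CPM. TMEFF2 had 447 (421 to 473) and 427 (406 to 448). The intervals of the libraries overlapped for all 3 genes. In fibroblasts of the NT5E, SPON1 and CPZ group, MYOC had 3.24 (fresh) and 9.45 (cryopreserved) unscaled CPM. Fibroblasts with fewer than 3 UMIs of every marker group, called the remaining fibroblasts below, had 11.6 and 9.14. Another 9 fresh and 15 cryopreserved fibroblasts reached 3 UMIs with no group ahead of the others, and are counted only among the other fibroblasts. Outside the fibroblasts MYOC lay below 1 unscaled CPM in keratinocytes, leukocytes, endothelial cells and mural cells of both libraries, and fibroblasts held 91.7% of its UMIs in the filtered fresh cells and 88.0% in the cryopreserved cells. The other markers were less confined to cells that met the collagen rule. Fibroblasts held 55.7% and 77.0% of FGF10 UMIs, with 47.4% and 68.8% in members, and 61.3% and 81.1% of TMEFF2 UMIs, with 54.6% and 67.9% in members. Of the 1274 FGF10 UMIs of the fresh cells, 217 lay in 41 cells that met the marker rule with 1% to under 2% of UMIs on the 3 collagen genes, and 329 in 71 such cells under 1%.

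COL1A1, the main chain of type I collagen, was measured at 20985 unscaled CPM in the fresh members and 21097 in the cryopreserved members. The NT5E, SPON1 and CPZ fibroblasts had 67582 and 83184, and the remaining fibroblasts had 22018 and 25753. Members and remaining fibroblasts were thus close to each other in COL1A1, and the NT5E, SPON1 and CPZ group had the highest level in each library.

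**Figure D1:**
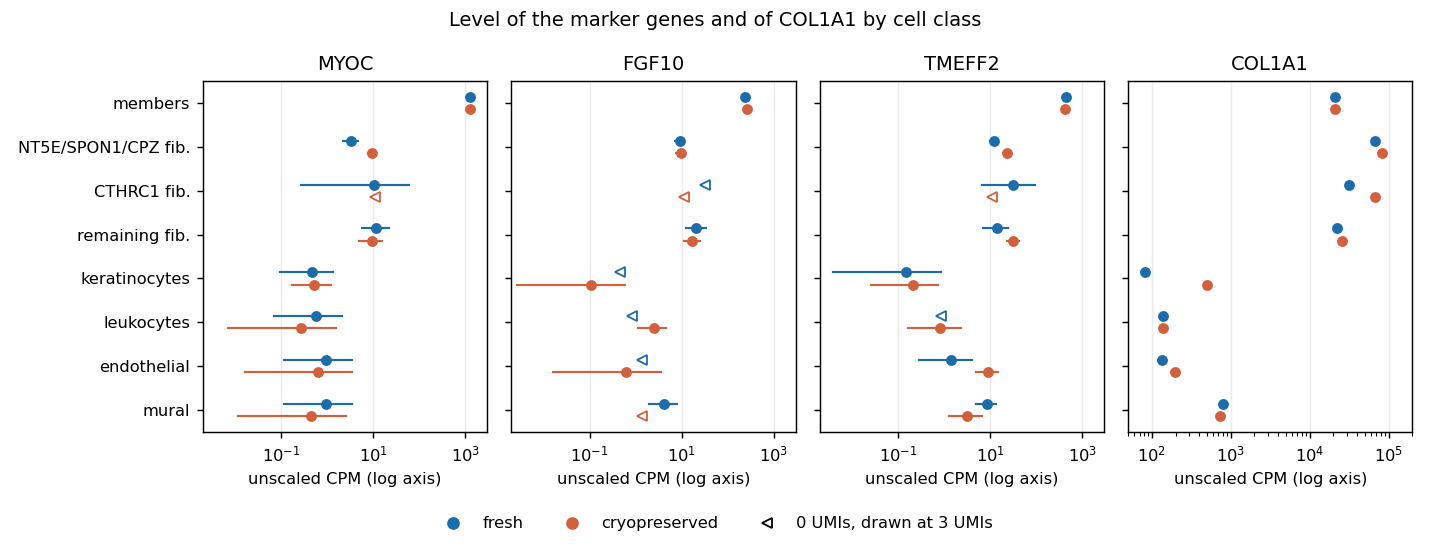
Levels of MYOC, FGF10, TMEFF2 and COL1A1 in unscaled CPM on a log axis, by cell class and library, with 95% exact Poisson intervals that cover counting error only, and open triangles for 0 UMIs drawn at 3 UMIs. MYOC stands above 1200 unscaled CPM in the members of both libraries and below 20 in every other class shown, while COL1A1 of the members is near that of the remaining fibroblasts.

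By cells, MYOC was detected in 75% of the fresh members and 76.2% of the cryopreserved members, and in 64.6% and 67.8% after thinning to 4000 UMIs. Keratinocytes, which should lack the gene, had a MYOC UMI in 0.671% of fresh cells (median 15207 UMIs) and 0.535% of cryopreserved cells (median 9718 UMIs). TMEFF2 was detected in 85.3% and 84.8% of the members and in 0.224% and 0.214% of keratinocytes. FGF10 was detected in 59.2% and 62.2% of members. Per cell, MYOC ranged from 0 to 130 UMIs in the fresh members with a median of 8, and from 0 to 123 with a median of 7 in the cryopreserved members. FGF10 had a median of 1 UMI in both libraries, with maxima of 40 and 68. The levels were thus carried unevenly. The 19 fresh and 34 cryopreserved members with most MYOC, 10% of each set, held 39.4% and 41.3% of its member UMIs, and for FGF10 the top 10% held 53.0% and 57.2%.

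The edges of the rule held the following cells. The summed count of MYOC, FGF10 and TMEFF2 was exactly 3 UMIs in 5 fresh and 18 cryopreserved members, and the median was 18 and 16. Just outside, 7 fresh and 18 cryopreserved fibroblasts met the rule otherwise but had 2 UMIs. Another 36 and 64 fibroblasts had at least 3 UMIs but not more than the counts of the other marker groups. On the collagen side, 33 and 70 members had from 2% to under 3% of UMIs on the 3 collagen genes.

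Each marker was also left out of the rule in turn, and fibroblasts were chosen with at least 3 UMIs of the other 2. MYOC then had 992 unscaled CPM in the 130 chosen fresh cells and 122 in the other fresh fibroblasts, a ratio of 8.16 (7.61 to 8.75). In the cryopreserved library the values were 1044 and 147, a ratio of 7.11 (6.70 to 7.55). Left out in the same way, FGF10 was 8.28-fold (7.09 to 9.69) and 9.01-fold (7.89 to 10.3) higher in the chosen cells, and TMEFF2 7.54-fold (6.75 to 8.43) and 5.68-fold (5.19 to 6.22). These ratios are a description of the rule's own genes, which were picked from these data. The chosen cells still had to exceed the counts of NT5E, SPON1 and CPZ and of CTHRC1, so the cells they were set against were mostly the NT5E, SPON1 and CPZ group, which was low in all 3 markers.

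Measures of cell quality are given because they differ between the groups compared below. The mitochondrial share had a median of 1.49% in the fresh members and 1.28% in the cryopreserved members, against 3.07% and 2.70% in the other fibroblasts. The share on the 3 collagen genes had a median of 4.54% and 4.75% in members, against 9.54% and 11.7% in the other fibroblasts. The remaining fibroblasts, used as a second reference below, were shallower cells, with medians of 7748 and 6232 UMIs, 2524 and 2336 genes, and mitochondrial shares of 3.62% and 2.78%. At 4000 UMIs per cell the members showed 1771 genes (median, fresh) and 1759 genes (cryopreserved), and the other fibroblasts 1680 and 1669. The thinning left out 9 fresh and 10 cryopreserved members that were shallower. The part of depth and of mitochondrial and collagen shares in the differences below was not tested.

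RNA of other lineages was low in the members. Of the keratinocyte list, 9 of 10 genes were matched and all 9 had UMIs, summing to 68.1 unscaled CPM in the fresh members and 68.8 in the cryopreserved members, against 33009 and 30559 in keratinocytes. Its most abundant gene was KRT10 in the fresh members and KRT5 in the cryopreserved members. The 8 blood endothelial genes summed to 79.7 and 90.9 unscaled CPM, against 3090 and 3341 in endothelial cells. PECAM1 alone gave 198 of 206 and 284 of 345 of these UMIs, and CLDN5 and KDR were at 0 in the fresh members. The 8 mural genes summed to 83.9 and 109, led by NOTCH3, against 7435 and 6943 in mural cells, and DES was at 0 in both libraries. The 5 lymphatic genes summed to 25.9 and 17.1 in members and to 4.79 and 3.42 in the other fibroblasts, with MMRN1 at 0 in the members of both libraries and FLT4 at 0 in those of the fresh library. CCL21 led this list in the fresh members with 37 UMIs and PROX1 in the cryopreserved members with 34. The 13 immune genes summed to 24.8 and 23.2, led by PTPRC, with CD2 and CD3D at 0 in both. The 4 matched mast cell genes summed to 7.35 and 15.8, led by KIT, and the 9 matched Schwann cell and melanocyte genes to 3.48 and 2.37, led by SOX10 with 4 and 7 UMIs. Leaving out all cells with 3 or more UMIs of the keratinocyte, endothelial, immune or mast lists left 248 of the 300 higher and 407 of the 464 lower genes described next.

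Members were next compared with all other fibroblasts of the same library. UMIs were summed over the cells of each subset and divided by library sizes corrected with edgeR's TMM factors, which gives the scaled CPM used from here on, and a gene was called when its log2 ratio was at least 1 in size in the same direction in both libraries. Of 8196 genes with at least 100 UMIs in the fibroblasts of each library, 300 were called higher in members (3.66%) and 464 lower (5.66%). The members were chosen from these same cells, so the counts describe the subset and nothing is read from them. The ratio had the same sign in both libraries for 6703 of the 8196 genes. In 144 of the 764 called genes, 1 cell held over 20% of the member UMIs of a library. Scaling by total UMIs in place of TMM moved the median log2 ratio of all genes from -0.05 to 0.07 for fresh cells and from -0.04 to 0.06 for cryopreserved cells, and then called 389 genes higher and 366 lower. DESeq2 size factors called 340 and 415. The NT5E, SPON1 and CPZ group made up 607 of the 729 other fibroblasts in the fresh library and 756 of 1006 in the cryopreserved library. Against the remaining fibroblasts alone (105 and 215 cells), only 4757 genes had enough UMIs, and 141 were called higher and 62 lower. Of the 300 higher genes 242 still had enough UMIs and 109 of these passed the limit, and of the 464 lower genes 170 had enough and 47 passed. With the minimum of 100 UMIs ignored, 130 of the 300 and 180 of the 464 passed. Most lower genes were thus not measured well enough in the remaining fibroblasts to be compared there.

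**Figure D2:**
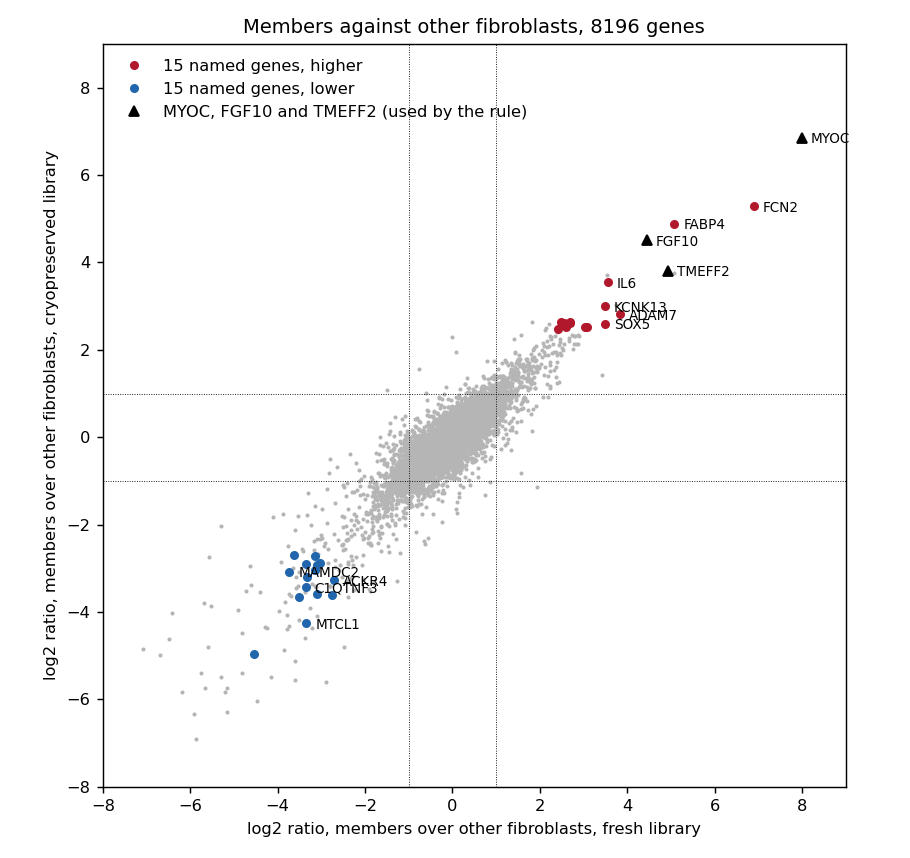
Log2 ratio of members over other fibroblasts for 8196 genes, fresh library on the horizontal axis and cryopreserved library on the vertical axis. The 15 genes named as highest and the 15 named as lowest are coloured, and MYOC, FGF10 and TMEFF2 are black triangles. The ratio has the same sign in both libraries for 6703 genes, and 300 are called higher and 464 lower.

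FCN2 (ENSSSCG00000023333), a lectin that starts the complement cascade, had the largest ratio among the ranked genes outside the rule. Ranked genes had a symbol that no other feature carried and at most 20% of their member UMIs in 1 cell. Of the 3 markers, MYOC had a larger ratio (255 and 115), and FGF10 (21.7 and 22.7) and TMEFF2 (30.8 and 13.96) had smaller ones. It stood at 266 scaled CPM in the fresh members and 2.23 scaled CPM in the other fresh fibroblasts, a 120-fold difference (79.1 to 190). With cryopreservation it stood at 214 and 5.48 scaled CPM, a 39.0-fold difference (29.9 to 51.8). As log2 ratios, FCN2 had 6.90 and 5.29 there, and 3.80 and 3.63 with the remaining fibroblasts alone as reference. Its RNA lay in a minority of members, with a UMI in 28.8% of the fresh and 32.1% of the cryopreserved members. Other fibroblasts had one in 0.960% and 1.39% of cells, at median depths of 14130 and 10386.5 UMIs. The top 10% of members held 78.4% and 73.2% of its member UMIs. Members held 79.7% of all FCN2 UMIs of the filtered fresh cells and 68.3% of those of the cryopreserved cells. FCN2 has near relatives in the genome, and how the reads were divided among them was not tested.

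IL6 (ENSSSCG00000020970), the inflammatory cytokine, was at 994 scaled CPM in fresh members and 84.4 scaled CPM in other fresh fibroblasts, 11.8-fold (10.9 to 12.7). The cryopreserved values were 1038 and 89.0 scaled CPM, 11.7-fold (10.9 to 12.5). IL6 was also abundant in vessels. Endothelial cells had 1671 and 1617 unscaled CPM and mural cells 1479 and 1659, against 1051 and 1063 in members. Within the members the top 10% held 70.9% and 65.2% of its UMIs.

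IL6 is 1 of 17 measured genes in a list of fibroblast cytokines and inflammatory genes, of which 10 were higher in members, 1 was lower and 6 were neither. The median log2 ratio of the list was 1.22 for fresh and 1.25 for cryopreserved cells, against -0.05 and -0.04 over all genes. Over all genes 3.66% were called higher and 5.66% lower. These shares stand beside the counts of every list compared with other fibroblasts below. In lists with few measured genes, a count of 1 or 2 is not read as a result. CXCL2, a chemokine that draws neutrophils, stood at 5062 scaled CPM in fresh members and 793 in other fibroblasts, and at 7094 and 1459 in the cryopreserved library. These are ratios of 6.38 and 4.86, and CXCL2 has close paralogs that may share reads. VCAM1, an adhesion molecule for leukocytes, was 5.55-fold and 4.51-fold higher, from 76.7 to 425 scaled CPM and from 92.3 to 416 scaled CPM. Vessel cells held RNA of CXCL2 and VCAM1 as well. CXCL2 had 5387 and 8557 unscaled CPM in endothelial cells and 7192 and 8798 in mural cells, against 5349 and 7265 in members, and VCAM1 had 275 and 189 in endothelial cells and 921 and 742 in mural cells, against 449 and 427 in members. SOD2, the mitochondrial superoxide dismutase that inflammatory signals induce, was 3.74-fold and 3.42-fold higher. All 4 remained past the limit against the remaining fibroblasts.

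FABP4 (ENSSSCG00000040681), the fatty acid binding protein of adipocytes and capillaries, was at 150 scaled CPM in fresh members and 4.45 scaled CPM in other fibroblasts, 33.8-fold (24.9 to 46.9). In the cryopreserved library it was at 336 and 11.3 scaled CPM, 29.6-fold (24.5 to 36.0). A FABP4 UMI was found in 41.8% and 52.1% of members and in 0.671% and 1.82% of keratinocytes. Endothelial cells had higher levels than members, 740 and 971 against 159 and 344 unscaled CPM. The 8 blood endothelial genes summed to 79.7 and 90.9 unscaled CPM in members, against 114 and 74.1 in the other fibroblasts, and the 5 lymphatic genes to 25.9 and 17.1, against 4.79 and 3.42. Their part in the FABP4 ratio was not tested. Of the 13 measured genes of lipid handling and adipocytes, 5 were higher, 1 was lower and 7 were neither, with a median log2 ratio of 0.78 and 0.90. LPL, which frees fatty acids from lipoproteins, was 4.92-fold (4.30 to 5.63) and 4.38-fold (3.92 to 4.90) higher. Mural cells had more LPL than members, 286 and 269 against 197 and 220 unscaled CPM. FABP4 was at 194 and 190 unscaled CPM in mural cells, above the fresh members and below the cryopreserved members. PPARG, the nuclear receptor that drives fat cell formation, was at 258 and 61.6 scaled CPM in fresh members and other fibroblasts and at 303 and 67.4 scaled CPM after cryopreservation. Its ratios were 4.19 and 4.49. PLIN2, a coat protein of lipid droplets, was 3.76-fold and 4.25-fold higher. Against the remaining fibroblasts, PPARG fell short of the limit with a log2 ratio of 0.85 in the fresh library, whereas FABP4, LPL and PLIN2 stayed past it. The log2 ratios of FABP4 were 2.97 and 3.01 there, against 5.08 and 4.89 with all other fibroblasts as reference. The adipocyte genes ADIPOQ and PLIN1, looked at after the other values were seen, had 6 and 5 UMIs in all fresh members and 10 and 18 in all cryopreserved members.

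Complement genes were mixed. C4A, the fourth complement component, stood at 431 and 66.8 scaled CPM in fresh members and other fibroblasts and at 401 and 65.6 scaled CPM in the cryopreserved library, ratios of 6.45 (5.87 to 7.10) and 6.12 (5.59 to 6.70). As log2 ratios these are 2.69 and 2.61, and C4A had 1.49 and 1.38 against the remaining fibroblasts. CFB, factor B of the alternative pathway, was 5.46-fold and 4.31-fold higher at low levels, with 65 and 68 UMIs in members. C4BPA, a chain of the C4b-binding protein that inhibits the classical and lectin pathways, was 4.53-fold and 4.28-fold lower, but its log2 ratio was -0.03 once the maxima on genes and UMIs were lifted. The remaining fibroblasts had 10 and 21 UMIs of C4BPA, and against them it had log2 ratios of -0.54 and -0.60, under the limit. Of the 8 measured genes these were the 3 called, and CFD, factor D, was 1.76-fold and 1.99-fold higher, under the limit.

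Genes of the FGF pathway were next. Of 15 measured ligands, receptors and targets, 5 were higher and 1 was lower, with a median log2 ratio of 0.02 and 0.67, and FGF10 is counted here although the rule used it. SPRY2 and SPRY4 encode sproutys, which receptor signalling induces and which damp it. SPRY2 was at 163 and 43.9 scaled CPM in fresh members and other fibroblasts and at 239 and 70.8 scaled CPM in the cryopreserved library, ratios of 3.70 and 3.38. SPRY4 was 2.71-fold and 2.81-fold higher. SPRED1, a related inhibitor of the Ras pathway, was 2.74-fold and 2.63-fold higher. Against the remaining fibroblasts SPRY2 stayed past the limit, whereas SPRY4 (log2 0.64) and SPRED1 (0.85) did not.

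Most WNT genes that were called were lower. Of 19 measured ligands, inhibitors and targets, 9 were lower and 1 was higher, with median log2 ratios of -1.09 and -0.82. WIF1, a secreted WNT inhibitor, had 10 UMIs in all fresh members and 1343 in the other fresh fibroblasts, which is 35.5-fold lower in scaled CPM (19.3 to 74.2). In the cryopreserved library it had 8 and 1170 UMIs, 53.7-fold lower (27.2 to 125). The remaining fibroblasts had only 8 and 22 UMIs of WIF1, and against them the log2 ratio was -1.07 in the fresh library, just past the limit, and -2.57 in the cryopreserved library, on too few UMIs to be called. WNT16 had 0 UMIs in fresh members and 1 in cryopreserved members, against 253 and 179 in the other fibroblasts, and was at least 22.3-fold lower in the fresh library with 0 set to 3 UMIs over the group. RSPO1, an enhancer of WNT signalling, had 3 and 2 UMIs in members and 163 and 159 in the others. NKD1, an inhibitor that WNT signalling induces, was 9.59-fold and 14.9-fold lower on 12 and 7 UMIs. For each of these 4 genes 1 member held over 20% of the member UMIs of a library, since so few were present.

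Of 30 measured genes of the TGF-beta, activin and BMP family, 3 were higher, 4 lower and 23 neither, and the medians were -0.17 and -0.20. Of all genes 3.66% were higher and 5.66% lower. GDF10, a ligand of the family, was 4.26-fold (3.42 to 5.30) and 4.23-fold (3.51 to 5.11) higher, with 179 and 292 UMIs in members. GREM1, a secreted BMP antagonist, was 25-fold and 7.72-fold lower on 13 and 40 UMIs. BMP7, a ligand, had 8 and 5 UMIs in members against 312 and 327 in the other fibroblasts. INHBA, a subunit of activin, was 3.09-fold and 6.08-fold lower on 18 and 9 UMIs, and its log2 ratio came to -0.89 with the maxima lifted. GDF10 and GREM1 also passed the limit against the remaining fibroblasts.

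Other leading genes were of several kinds. KCNK13, a potassium channel subunit, was 11.2-fold (9.11 to 13.8) and 7.97-fold (6.59 to 9.67) higher. TMEM100, a membrane protein known from endothelium and sensory neurons, stood at 322 and 37.9 scaled CPM in the fresh library and at 413 and 71.4 scaled CPM in the cryopreserved library, 8.48-fold and 5.78-fold. SOX5, a transcription factor known from cartilage, was 11.2-fold and 6.05-fold higher. NTF3, the growth factor neurotrophin-3, was 6.50-fold and 6.19-fold higher on 86 and 75 UMIs in members. Each of these was higher in members of both libraries. MAST4, a kinase, was 5.38-fold and 5.60-fold higher, and ADAM7, of a family of membrane proteins with protease-like domains, 14.2-fold and 7.04-fold. ACSS1, which makes acetyl-CoA in mitochondria, was 5.67-fold and 6.0-fold higher. DYNC1I1, a chain of the motor dynein, TNIK, a kinase tied to WNT signalling, DEPDC1B, and AQP3, a water and glycerol channel that keratinocytes also express, had ratios from 5.60 to 8.13 in the fresh library and from 5.71 to 6.21 in the cryopreserved library. All 15 genes named as highest, FCN2, FABP4, IL6 and C4A included, had a log2 ratio above 1 against the remaining fibroblasts in both libraries, the smallest being 1.26 for TNIK in the cryopreserved library. ADAM7, NTF3, TNIK and AQP3 had fewer than 100 UMIs there in at least 1 library and could not be called.

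**Figure D3:**
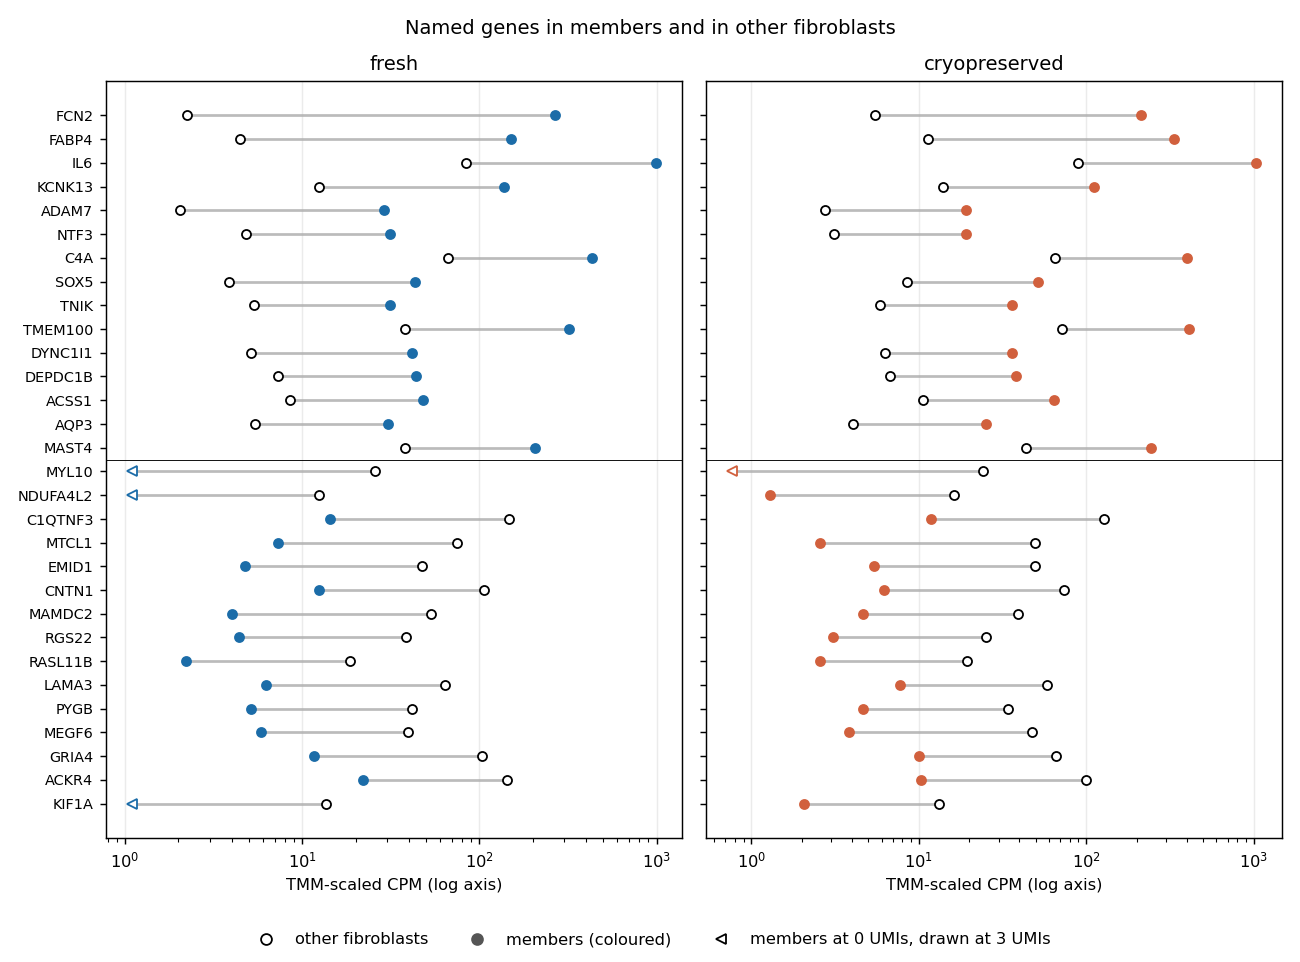
TMM-scaled CPM on a log axis of the 15 genes named as highest and the 15 named as lowest in members, with members and other fibroblasts as separate points and the libraries in separate panels; open triangles mark 0 UMIs, drawn at 3 UMIs. FCN2 stands at 266 and 2.23 scaled CPM in the fresh library, and MYL10 is at 0 UMIs in the members of both libraries.

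At the low end, MYL10, a myosin light chain, had 0 UMIs in the members of both libraries and 266 and 256 in the other fibroblasts, at least 23.5-fold and 31.3-fold lower. NDUFA4L2, a mitochondrial protein known to be induced by low oxygen, had 0 and 5 UMIs in members, at least 11.4-fold lower in the fresh library and 12.6-fold (5.31 to 39.4) in the cryopreserved library. C1QTNF3, a secreted C1q-like protein, was at 14.3 and 147 scaled CPM in fresh members and other fibroblasts and at 11.8 and 127 scaled CPM in the cryopreserved library, 10.3-fold and 10.7-fold lower. Each was low in the members of both libraries. CNTN1, a neural adhesion molecule, was 8.53-fold and 12.0-fold lower. ACKR4, a scavenger receptor for chemokines, was 6.54-fold and 9.65-fold lower. EMID1, a matrix protein, was 10.0-fold and 9.20-fold lower. The others, MTCL1, MAMDC2, RGS22, RASL11B, LAMA3, PYGB, MEGF6, GRIA4 and KIF1A, had at most 39 UMIs in the members of either library. KIF1A, a motor of nerve cells, had 0 UMIs in fresh members and was at least 12.3-fold lower there. In cryopreserved members it had 8 UMIs and was 6.43-fold lower (3.17 to 15.2). Against the remaining fibroblasts the log2 ratio was -0.66 for LAMA3 and -0.92 for KIF1A in the cryopreserved library. MYL10 and NDUFA4L2 had no ratio there in the fresh library. Of the 15 genes named as lowest, only CNTN1 and ACKR4 had enough UMIs there to be called, and both passed the limit. The others could not be called.

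Among fibrillar collagens the 3 lower genes of 8 measured were those of the rule. COL1A1 was 3.29-fold and 3.76-fold lower than in the other fibroblasts, COL1A2 3.25-fold and 3.48-fold, and COL3A1 2.04-fold and 2.11-fold. Against the remaining fibroblasts COL1A1 had log2 ratios of 0.13 and -0.09, of different sign, and in the library nearer to 0 COL1A2 was at 0.14 and COL3A1 at 0.33. COL3A1 also came under the limit with scaling by total UMIs (-0.90), with DESeq2 size factors (-0.98), with no mitochondrial limit (-0.998) and with a collagen minimum of 4% (-0.84). COL27A1, a minor fibrillar collagen, was 2.12-fold and 2.21-fold higher, but its log2 ratio was 0.62 with a collagen minimum of 4%. SPARC, a collagen-binding matrix protein, was 2.80-fold and 2.85-fold lower and was the 1 gene called of 13 in the list of fibroblast identity, where 5.66% of all genes were called lower. Its log2 ratio against the remaining fibroblasts was 0.05 in the library nearer to 0. The list of fibroblast identity had median log2 ratios of -0.30 (fresh) and -0.41 (cryopreserved) against all other fibroblasts.

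Basement membrane genes, which encode the sheet under epithelia and around vessels, were higher in part. Of 13 measured, 4 were higher and 2 lower, with medians of 1.07 and 0.80. COL4A1 stood at 1221 and 274 scaled CPM in fresh members and other fibroblasts and at 1451 and 316 scaled CPM in the cryopreserved library, ratios of 4.46 (4.24 to 4.69) and 4.59 (4.40 to 4.79). COL4A2, its partner chain, was 3.63-fold and 3.57-fold higher. COL15A1, a collagen of vessel and muscle basement membranes, was 3.65-fold and 4.13-fold higher. All 3 stayed past the limit against the remaining fibroblasts, at log2 ratios from 1.06 to 1.78. LAMA3, a laminin chain, was lower, as given above. Of 17 collagens outside the fibrillar group, 3 were higher and 7 lower, with medians of -0.81 and -0.73. COL6A5, a chain of type VI collagen known from the upper dermis, had 1 UMI in the members of each library and 204 and 114 in the other fibroblasts. COL12A1, which links collagen fibrils, was 3.95-fold and 3.37-fold lower, with a log2 ratio of -0.60 against the remaining fibroblasts.

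Elastic fibre genes were mostly lower where called. Of 17 measured, 6 were lower and 2 higher, with medians of -0.55 and -0.47. ELN, elastin itself, was at 7.32 and 41.3 scaled CPM in fresh members and other fibroblasts and at 6.43 and 34.9 scaled CPM in the cryopreserved library, 5.65-fold and 5.42-fold lower. FBN2, a fibrillin of the microfibril, had 4 and 3 UMIs in members against 210 and 171. MFAP2 was 3.21-fold and 3.37-fold lower, though its log2 ratio was -0.39 against the remaining fibroblasts. EFEMP1, a fibulin, was higher, 3.46-fold and 3.07-fold, and came to 0.80 against the remaining fibroblasts.

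Matrix proteases and their inhibitors were higher where called. Of 19 measured proteases and inhibitors, 7 were higher, none was lower and 12 were neither, with medians of 0.10 and 0.36. ADAMTS4, which cleaves aggrecan and versican, stood at 1648 and 343 scaled CPM in the fresh library and at 1649 and 349 scaled CPM in the cryopreserved library, ratios of 4.80 (4.59 to 5.02) and 4.72 (4.53 to 4.92). ADAMTS5, of the same family, was 3.78-fold and 3.0-fold higher, ADAM19 3.08-fold and 3.01-fold, and ADAMTS9 2.57-fold and 2.52-fold. ADAMTS4 stayed past the limit against the remaining fibroblasts with a log2 ratio of 1.48, while ADAMTS5 (0.83), ADAM19 (0.64) and ADAMTS9 (0.65) did not.

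Lists that mark positions in the dermis were checked as well. Of 10 measured genes of the papillary dermis, the upper layer, 6 were lower and none higher, with medians of -3.08 and -2.08, and WIF1, COL6A5, TNC and APCDD1 led them. The values of WIF1 against the remaining fibroblasts are given above, and COL6A5 (log2 -6.02) and TNC (-3.69) were past the limit there, on fewer than 100 UMIs. TNC, the matrix protein tenascin C, had 6 and 9 UMIs in members against 264 and 260, and APCDD1, a WNT inhibitor, was 12.5-fold and 7.99-fold lower. Of 12 measured genes of the reticular dermis, the deep layer, 1 was higher and 2 lower, against 3.66% and 5.66% of all genes. Nothing is read from these counts, and the medians of the list were -0.04 and -0.36. MFAP4 there was 2.82-fold and 2.77-fold lower, with a log2 ratio of -0.19 against the remaining fibroblasts. Of 11 genes of the hair follicle papilla and sheath, 5 were lower and none higher. DPEP1 had 3 and 7 UMIs in members against 216 and 395, and CRABP1, a carrier of retinoic acid, was 4.77-fold and 11.3-fold lower, with 36.2% of its fresh member UMIs in 1 cell. Several genes stand in more than 1 of these lists, WIF1 in 3 of those named here.

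Of 10 measured genes of universal and adventitial fibroblasts, 1 was higher, 3 lower and 6 neither. COL15A1 was the higher one. PI16 was 2.74-fold and 6.18-fold lower, at 205 and 106 scaled CPM in members against 561 and 655 scaled CPM in the others. COL14A1 was 2.26-fold and 2.55-fold lower, with a log2 ratio of -0.07 against the remaining fibroblasts. Of 12 measured myofibroblast genes, 6 were lower and 2 higher. CTHRC1, which the rule used, was 8.67-fold and 10.8-fold lower, and TPM2, a tropomyosin of contractile cells, was 5.03-fold and 6.61-fold lower on 9 and 13 UMIs. Of 7 measured genes of nerve-associated fibroblasts, 2 were higher and 1 lower, against 3.66% and 5.66% of all genes. Nothing is read from these counts. EBF2, a transcription factor, was 4.46-fold and 2.33-fold higher, and NTRK2, a neurotrophin receptor, 3.62-fold and 2.61-fold, with a log2 ratio of 1.11 against the remaining fibroblasts. Of 11 small leucine-rich proteoglycans, 3 were lower and none higher, and these 3, ASPN, OMD and KERA, were not past the limit against the remaining fibroblasts. Of 18 measured immediate early genes 1 was lower, a share near the 5.66% of all genes. It was NR4A1, a nuclear receptor, 2.62-fold and 2.24-fold lower, and its log2 ratio against the remaining fibroblasts was -0.65, under the limit. Of 11 heat shock chaperones none was called, where 3.66% of all genes were higher and 5.66% lower, and nothing is read from this.

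**Figure D4:**
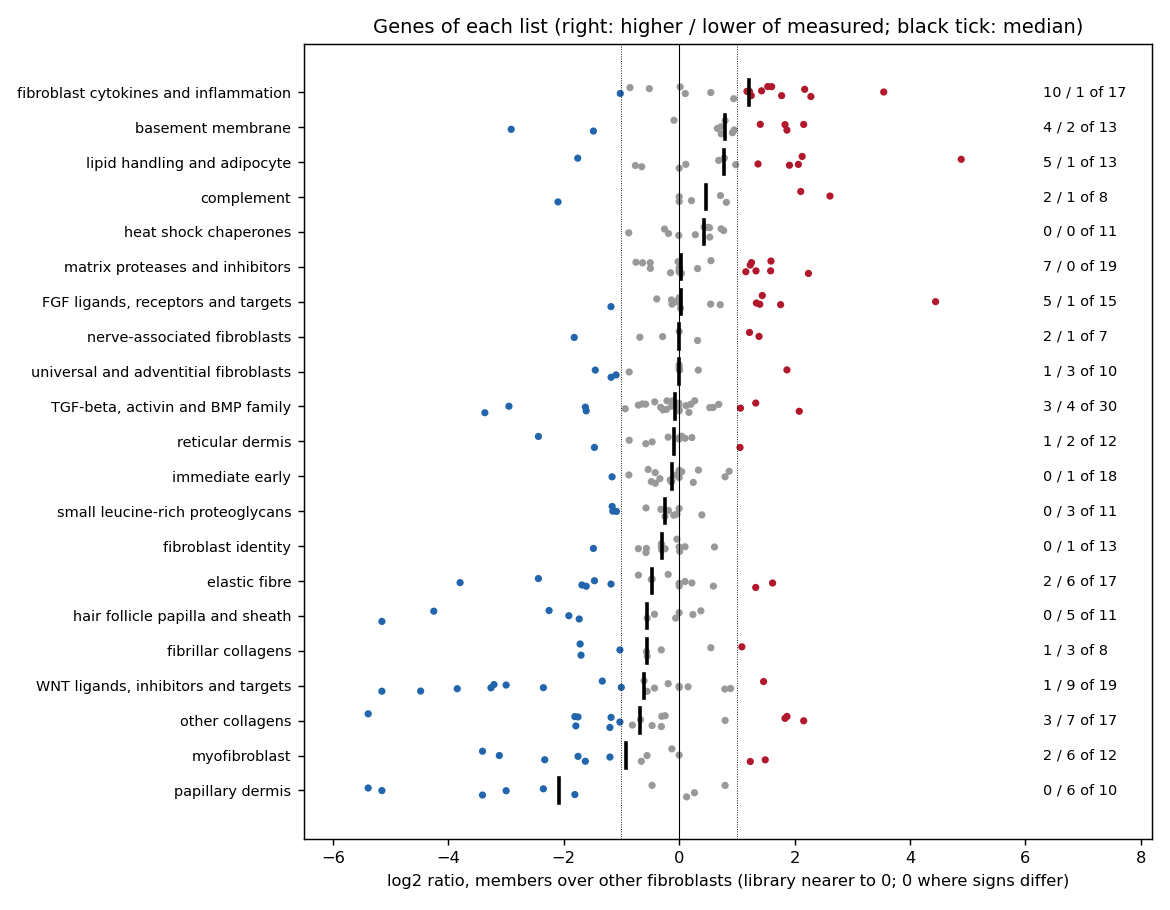
Log2 ratio of members over other fibroblasts for each measured gene of the lists with at least 7 measured genes. Values are from the library nearer to 0 and are set to 0 where the libraries differ in sign. The median is a tick, and the counts of higher and lower genes stand at the right. Cytokines and inflammation have 10 of 17 genes higher, and papillary dermis has 6 of 10 lower. Of all genes 3.66% were higher and 5.66% lower.

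Members were also split by a MYOC UMI, a gene of the rule, so that those without it qualified through FGF10 and TMEFF2. In the fresh library, IL6 had 1283 unscaled CPM (1232 to 1335) in the 138 members with MYOC and 426 (379 to 477) in the 46 without. In the cryopreserved library it had 1140 (1101 to 1180) in 256 members and 834 (777 to 894) in 80. CXCL2 had 5787 and 4169 unscaled CPM in the fresh library and 7733 and 5880 in the cryopreserved library. The intervals treat UMIs as independent and leave out the spread between cells, and few cells carry much of this RNA, since the top 10% of members held 70.9% and 65.2% of IL6 UMIs and 40.9% and 36.5% of CXCL2 UMIs. The split is therefore given as values only. COL1A1 was lower, at 20274 against 22901 and at 20055 against 24183. TMEFF2 was lower beside MYOC as well, at 400 against 571 and at 406 against 489, and this follows in part from the rule, since a member without MYOC must reach 3 UMIs through the other genes. Median depth was 14207 UMIs with MYOC and 16522 without it in the fresh library, and 10798 and 12022 in the cryopreserved library. PPARG and FABP4 gave no common direction with intervals apart in both libraries.

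Cryopreserved members were then set against fresh members. Of 6309 genes with at least 100 UMIs over the members of both libraries, 50 had a log2 ratio of at least 1 (0.793%) and 37 of at most -1 (0.586%). The median over all genes was 0.03. In 10 of the 87 called genes, over 20% of the UMIs lay in 1 cell, which included the most extreme ones. S100A5, with a log2 ratio of 3.26, had 67.9% of its UMIs in 1 cell, and CEMIP, at -3.17, had 74.3%. These 2 genes were chosen after their values were seen, and the genes named below had at most 20% in 1 cell.

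The markers of the subset differed little between the libraries, and they belong to the rule. The log2 ratio of cryopreserved over fresh was 0.05 for MYOC (-0.01 to 0.12), 0.23 for FGF10 (0.08 to 0.38), -0.00 for TMEFF2 (-0.11 to 0.11) and 0.07 for COL1A1 (0.06 to 0.09). Among genes outside the rule, IL6 was at 0.08 (0.01 to 0.15) and PPARG at 0.25 (0.12 to 0.39). CXCL2 was at 0.51 in members and 0.88 in other fibroblasts. FABP4 was past the limit at 1.18 (1.02 to 1.34), and at 1.35 in other fibroblasts, but it came to 0.96 with a collagen minimum of 1% and to 0.71 with the maxima lifted.

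Among the genes higher in cryopreserved members, IL11, a cytokine of the IL6 family, had 16 fresh and 110 cryopreserved UMIs, in 7 and 33 cells, a log2 ratio of 2.29 (1.53 to 3.15). The ratio in other fibroblasts was 1.53 (0.86 to 2.25). ARPC1B, a subunit of the complex that branches actin filaments, had 246 and 995 UMIs, 1.53 (1.32 to 1.73), against 1.61 in other fibroblasts. SERF2 stood at 1.38 against 1.28, and SUB1, a transcriptional coactivator, at 1.37 against 1.19. The gap between the subsets was under 0.2 for ARPC1B, SERF2 and SUB1. It was wider for IL11, for NOP10 (1.64 against 0.81), a protein of small nucleolar particles, and for BRK1 (1.43 against 0.75), an actin regulator, all nearer to 0 outside the members, and for these 3 the intervals of the subsets overlapped. TPRA1 (1.42 against 0.37), UQCRQ (1.34 against 0.38), a subunit of respiratory complex III, and PMM1 (1.32 against 0.35), a phosphomannomutase, were further apart. PMM1 came to 0.91 with the maxima on genes and UMIs lifted, under the limit. These genes were picked as highest in members, so values nearer to 0 elsewhere can follow from the picking alone. None of these gaps was tested.

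GADD45G, a stress-induced regulator of growth arrest, had 306 UMIs in fresh members and 1131 in cryopreserved members, found in 83 of 184 and 242 of 336 cells. Its log2 ratio was 1.40 (1.21 to 1.58) in members and -0.00 (-0.07 to 0.06) in the other fibroblasts. GADD45G was among the genes picked as highest in members, and the difference between the subsets was not tested.

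Lower in cryopreserved members were PRMT2, an arginine methyltransferase, with 188 and 41 UMIs, a log2 ratio of -2.69 (-3.21 to -2.19), and ND3, a mitochondrially encoded subunit of complex I, with 1159 and 310 UMIs, -2.39 (-2.58 to -2.21). Both had a ratio of -2.43 in the other fibroblasts. RPS20, a ribosomal protein, was at -1.23 against -1.21, and ISLR, a marker of stromal cells, at -1.72 (-2.02 to -1.42) against -1.26 (-1.43 to -1.10). The other 6 of the 10 lowest had ratios nearer to 0 or above 0 outside the members. These genes were picked as lowest in members, so values nearer to 0 elsewhere can follow from the picking alone. DUSP4, a phosphatase that turns off MAP kinases, had 92 and 46 UMIs and stood at -1.49 against 0.17, and USP53 at -1.55 against -0.38. GRAMD2B (-1.43 against 0.44), GCNT4 (-1.37 against -0.01), RILPL1 (-1.26 against 0.03) and ZNF536 (-1.16 against -0.15) completed the set. The intervals outside the members held 0 for DUSP4, GCNT4 and RILPL1. GRAMD2B came to -0.77 with a collagen minimum of 4%. Over all calls, 10 of 49 higher and 5 of 37 lower genes that were also measured in other fibroblasts had the same call there, and 9 of 86 had the other sign. Over all 6284 genes measured in both, the 5th and 95th percentiles in other fibroblasts were -0.46 and 0.53, both short of the limit. The share of all genes with the other sign is not given here, so nothing is read from that count.

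**Figure D5:**
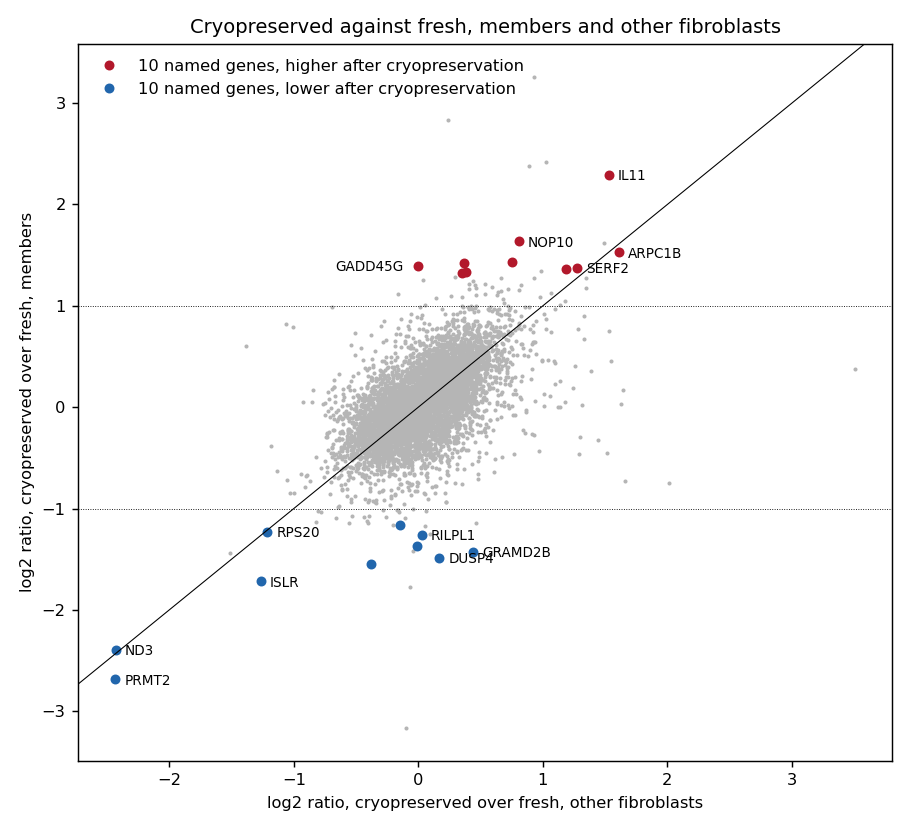
Log2 ratio of cryopreserved over fresh in other fibroblasts (horizontal axis) and in members (vertical axis), with the 10 highest and 10 lowest named genes coloured. PRMT2 and ND3 are near -2.4 on the horizontal axis and between -2.7 and -2.3 on the vertical axis, and GADD45G is at 1.40 in members and near 0 in the other fibroblasts.

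Genes that respond to handling were followed by list. Of 17 measured immediate early genes, which stimulation and dissociation are known to induce within minutes, 1 was higher and none lower in cryopreserved members, where 0.793% of all genes were called higher and 0.586% lower, with a median log2 ratio of 0.60 in members, 0.11 in the other fibroblasts and 0.03 over all genes. FOS had 3417 and 8853 UMIs in members, 0.88 in members against -0.01 in the other fibroblasts. ATF3 was at 0.86 against 0.29, and DUSP1, a phosphatase of the same response, at 0.82 against 0.25. JUNB, the 1 called gene, was at 1.13 against 1.06 on 29 and 89 UMIs. Of 11 heat shock chaperones none was called, with medians of 0.17 and 0.16, and HSPA5, the chaperone of the endoplasmic reticulum, was highest at 0.89 against 0.82. RBM3, which cold induces, was at 0.83 in members and 0.58 in the other fibroblasts. MT1X, a metal-binding protein, was at 2.42 against 1.03, with 32.9% of its member UMIs in 1 cell. Of the division list, PCNA alone had enough UMIs, with 124 and 270 in members and a ratio of 0.63.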

How the data were processed

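Counts of UMIs per gene and cell were deposited by the authors for 2 libraries (53271738 UMIs fresh, 42217632 cryopreserved). Per the labels and the submitters' processing notes they were made with Cell Ranger 4.0.0 and STAR 2.5.1b on Sscrofa11.1. Of 31908 features, 15189 had no symbol, and 772 of these took one from a table of gene names. UMIs were summed per library and subset with Python 3.11.15 and scaled by TMM in edgeR 4.0.16 under R 4.3.3 (DESeq2 1.42.0 as an alternative). Exact 95% intervals cover counting error only, and a count of 0 was set to 3 UMIs over the group for folds. No doublet caller was run beyond the maxima. Genes were named by rule: the genes of the selection; the 15 highest and 15 lowest against other fibroblasts (by the library nearer to 0, at most 20% of member UMIs in 1 cell); the 10 highest and 10 lowest between libraries; and up to 4 genes per list. For the highest and lowest genes, only features with a symbol that no other feature carried were eligible. There were 31 lists, with 410 of 440 genes matched. The members, lists and comparisons were chosen with earlier results of these data known. Alternatives covered each threshold, the scaling, the UMI minimum and the reference cells. Coordinates are those of RefSeq.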

Additional observations from a re-analysis of the deposited data

Results flagged for a closer look

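Of the 20 genes named for the largest differences between the libraries, 4 had point values of opposite sign in members and in the other fibroblasts. GADD45G had a log2 ratio of cryopreserved over fresh of 1.40 in members and -0.00 (-0.07 to 0.06) in the other fibroblasts. DUSP4 had -1.49 and 0.17 (-0.23 to 0.57), and RILPL1 -1.26 and 0.03 (-0.21 to 0.27). For these 3 genes the interval in the other fibroblasts held 0, so no sign is shown there. GRAMD2B had -1.43 and 0.44 (0.20 to 0.68), and its value in members came to -0.77 with a collagen minimum of 4%. The genes were picked as extreme in members, and the differences were not tested, since each condition had 1 library.

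Cells with the same excess of MYOC, FGF10 and TMEFF2 over the other marker groups but with under 2% of UMIs on the 3 collagen genes were left out of the members. There were 112 such fresh cells and 102 such cryopreserved cells. Those between 1% and 2% numbered 41 and 57, and had 429 and 1180 unscaled CPM of MYOC. Those under 1% numbered 71 and 45. In the 71 fresh cells MYOC had 112 unscaled CPM, against 1250 in fresh members, FGF10 had 557 against 234, TMEFF2 787 against 447, and DCN 510 against 4227. In the 45 cryopreserved cells ADIPOQ, which encodes the adipocyte hormone adiponectin, had 124 UMIs in 10 cells, and PLIN1, a lipid droplet protein, had 63 UMIs in 9 cells. Both genes were at 0 UMIs in the 71 fresh cells under 1%.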

How the results depend on the processing

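No paired analysis was possible because each condition had 1 library; members and other fibroblasts were compared within each library, with no test, since the members were chosen on these values. With at least 6 marker UMIs, members made up 6.75% of cryopreserved cells and 21.2% of fibroblasts. With fibroblasts thinned to 4000 UMIs, the shares were 5.71% of fresh cells, 16.4% of fresh fibroblasts and 20.6% of cryopreserved fibroblasts. A collagen minimum of 1% gave 8.11% of fresh and 9.31% of cryopreserved cells, and 4% gave 3.89% and 4.95% of cells and 15.1% and 19.4% of fibroblasts. With no mitochondrial limit the share was 4.90% of fresh cells. Without cells holding other lineages' markers it was 12.0% of fresh and 16.9% of cryopreserved cells, because the other lineages leave the denominator. Against other fibroblasts, a minimum of 20 UMIs per gene called 831 genes lower, 500 UMIs called 166 higher and 210 lower, and no minimum 550 and 864. The remaining fibroblasts as reference called 141 and 62, of fewer genes with enough UMIs. There SPON1 (log2 0.46), CPZ (0.89), COL1A2 (0.14), COL3A1 (0.33), SPARC (0.049), KERA (0.46), ASPN (0.071) and OMD (0.56) had values above 0, with 0 inside the interval for ASPN; for SPON1 and CPZ this is by construction, since these cells hold few of their UMIs, and the cause for the others was not tested. Of 1215 values of the 93 called named genes under alternatives, 42 came under the limit and these 8 had the other sign. Of the 42 values, 23 came from the remaining fibroblasts as reference, and so did all 8 with the other sign. Genes with too few UMIs there gave no value, so the calls depend most on the reference cells. Between libraries 4 of 292 values came under the limit and none reversed. Cryopreserved over fresh, a minimum of 20 UMIs called 315 genes higher and 208 lower, 500 UMIs called 6 and 5, no minimum 852 and 673, and members chosen after thinning 23 lower. Leaving out the cell with most UMIs of each gene called 58 higher (43 of the 50 among them) and 25 lower (18 of the 37). With 2 UMIs of the other 2 markers, MYOC was 11.3-fold higher in fresh and 8.18-fold in cryopreserved cells. As ratios of thinned shares of cells, it was 6.70 and 6.02, FGF10 5.84 and TMEFF2 4.77 in the cryopreserved library. Depth limits genes with few UMIs in members, such as WNT16, COL6A5 and RSPO1.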
